A study of Brassica napus with 12 samples.

Results

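Leaves of Brassica napus (oilseed rape) fed on by larvae of the diamondback moth Plutella xylostella were set against leaves sprayed with methyl jasmonate (MeJA), to ask how feeding and the hormone alone differ. These are 4 of the 12 labelled libraries of the series, 2 from herbivory and 2 from MeJA, each carrying replicate number 41 or 42. They were chosen by their labels and not by any measured value.

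All plants were of the genotype RV31, grown for 21 days under white light, and true leaf tissue was harvested. In the herbivory group starved second instar larvae grazed the youngest leaves of unsprayed plants in mesh cages for 1 h. The series' design text gives a further 3 h before harvest, whereas the study's methods count 4 h from the removal of the larvae. In the MeJA group each plant received a spray of 4 mL of 100 µM MeJA, which also held ethanol and the wetting agent UN65, and was harvested after 4 h. Both groups were kept at the same lowered white light, but the herbivory plants stood in a separate cabinet with its own temperature setting and were not sprayed, while each sprayed plant was kept under a propagator cover. Feeding therefore cannot be told apart from the absence of the spray, of the ethanol and wetting agent and of the cover, nor from the other cabinet and its temperature. The design text gives 3 biological replicates per treatment, and the 2 labelled libraries of each group were used. The study's methods, however, say that 3 independent replicates of a treatment were pooled for RNA. Whether a labelled library holds 1 replicate or such a pool is not stated. The spread between the 2 libraries of a group may therefore not be the spread between plants. The other labelled groups, also 2 libraries each, were sprayed with ethanol and UN65 (0.01% of each) or with distilled water, or were kept for 4 h under white light or under UV-B with no spray.

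Jasmonates are lipid-derived hormones made in the plastid and peroxisome, starting with a lipoxygenase (LOX2 and its relatives), allene oxide synthase (AOS) and allene oxide cyclase (AOC). The conjugate jasmonoyl-isoleucine brings the receptor COI1 together with JAZ repressors, whose breakdown frees MYC transcription factors, and these switch on defence genes such as VSP2 and the glucosinolate pathway of the cabbage family. Chewing releases jasmonates too, but it also breaks cells, opens the leaf to water loss and brings larval secretions into the wound. A hormone spray gives the leaf the signal without the injury.

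Levels are FPKM (fragments scaled by transcript length and by the size of the library) as deposited, put on one scale by dividing every library by the median, over loci, of its ratio to the average of the libraries. Loci are B. napus genes with the closest Arabidopsis gene given by the annotation, and B. napus usually holds several copies of each Arabidopsis gene. Fold changes are on the scale of log2(scaled FPKM + 1), which understates changes of low loci, and are positive where herbivory was higher. They are given ± standard error with n = 2 libraries a group. A locus was called at an adjusted p under 0.05 (limma with Benjamini-Hochberg adjustment over all loci) and a change of at least 2 fold. The 2 herbivory columns and the 2 MeJA columns come from quantification runs that the authors scaled separately, so levels set across them rest on the later scaling.

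Replicates agreed more closely with each other than with the other group. The correlation of log2 levels across loci was 0.895 between the herbivory libraries and 0.908 between the MeJA libraries, against 0.795 to 0.846 between groups. Photosynthesis transcripts were abundant in all 4 libraries, as in leaf: the light-harvesting antenna loci had a median log2 level of 9.86 and 8.18 in herbivory and of 8.68 and 9.10 in MeJA. No locus of the 5 root marker genes passed the filter on low values. Marker lists for trichome, guard cell, phloem, xylem, dividing cells and epidermis held 7, 27, 26, 19, 21 and 21 tested loci, and none was called. Their medians lay between -0.44 (xylem) and -0.13 (epidermis), and those of epidermis, phloem and trichome came out above 0 when single libraries were left out (0.16 for epidermis without herbivory 42, 0.04 for phloem without herbivory 41 and 0.06 for trichome without MeJA 41). Of the dividing-cell loci, 20 of 21 were lower in herbivory, and their summed level was 86.5 and 31.0 FPKM in herbivory against 98.1 and 62.8 FPKM in MeJA. Their median was -1.05 without herbivory 41 and 0.25 without herbivory 42, so its sign rests on herbivory 42. In bulk tissue fewer cells of a type and less RNA per cell cannot be told apart.

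Some libraries stood apart in whole blocks of neighbouring genes. In windows of 51 loci along each chromosome, stretches were sought where a herbivory or MeJA library lay at least 1 log2 unit under the median of the 12 libraries. On chromosome A09, between 146642 and 3841942 in the coordinates of the deposited tables (which name no genome build), 421 loci had a median deviation of -1.89 in MeJA 41 and -0.34 in MeJA 42. Both water libraries lay there at -1.94 and -1.87, and the other libraries were above 0. On C01, between 1265 and 18228963, 1281 loci had a median deviation of -1.85 in herbivory 41 and -0.47 in herbivory 42. UV-B 42 lay there at -0.40, and the other libraries were above 0. At the start of C04, 131 loci were low in both MeJA libraries (-1.31 and -1.24), in both water libraries and in 1 ethanol and UN65 library. A further 101 loci on the unplaced C01 sequences and 81 loci next to the C01 stretch were low in herbivory 41. Together these stretches held 2014 tested loci, and calls inside them are kept apart below.

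**Figure D1:**
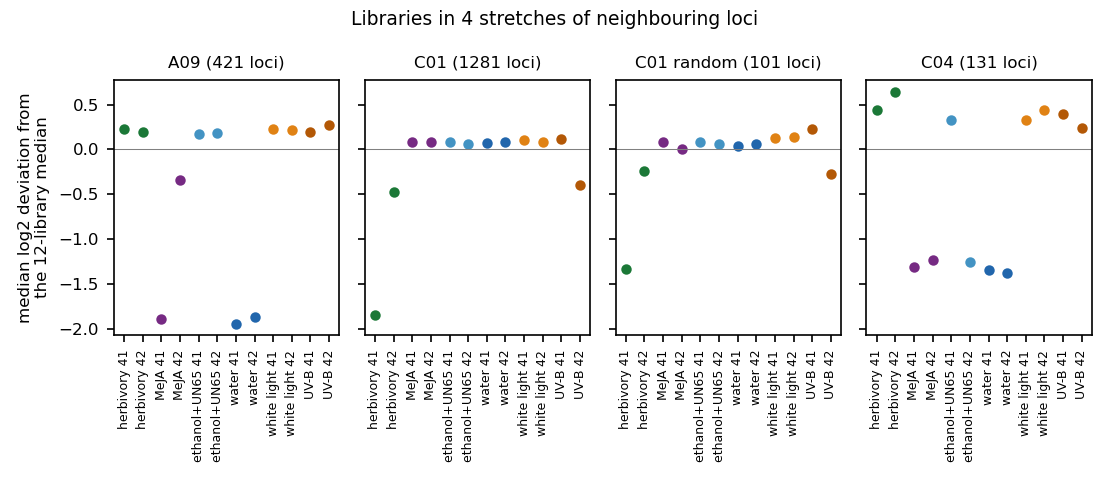
Median deviation of each library (points, 1 per library, coloured by group) from the 12-library median, in log2 units, over the loci of 4 stretches of neighbouring genes. MeJA 41 and both water libraries sit near -1.9 on A09, herbivory 41 sits at -1.85 on C01, and both MeJA libraries sit below -1.2 on C04.

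Of 49700 loci tested, 468 were called higher in herbivory (0.942%) and 417 were called lower (0.839%). Together they made 1.78% of all loci tested, the share to set beside the counts of calls in the lists below. In all 885 called loci the 2 herbivory values and the 2 MeJA values did not overlap, which the selection nearly fixes. Over all loci tested the groups did not overlap at 52.8%. The median change was 2.09 among loci called higher and -2.11 among loci called lower, against -0.02 over all loci tested. In the low stretches lay 49 of the loci called higher and 67 of those called lower, which leaves 419 higher and 350 lower outside them. An unadjusted p under 0.05 was reached by 5161 loci higher and 4785 lower in herbivory. The calls rest on a spread estimated from all 12 libraries: with the 4 libraries alone limma called none, although 9250 loci had an unadjusted p under 0.05, and an exact permutation test of 2 against 2 libraries cannot go below p = 0.333. The split between directions moved with the scaling: values as deposited gave 438 higher and 747 lower (median over all loci -0.12), and libraries set to equal totals gave 551 higher and 187 lower (median 0.14). Single libraries weighed heavily, since without MeJA 41 no locus was called (6505 with an unadjusted p under 0.05), without herbivory 41 there were 124 calls, and without herbivory 42 there were 132 higher and 644 lower. No called locus had a change under 4.86 times its standard error, which at the median standard error of 0.36 amounts to 1.77 on the log2 scale, or 3.41 fold. Smaller changes were called only at loci with less spread, so a locus or list without calls is not shown to be alike in both groups.

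For some genes several copies were called. The called loci matched 661 Arabidopsis genes, and 634 of these had at least 2 loci tested. In 143 of the 634, at least 2 loci were called in the same direction, 79 of them higher and 65 lower, and in 4 genes loci were called in both directions.

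**Figure D2:**
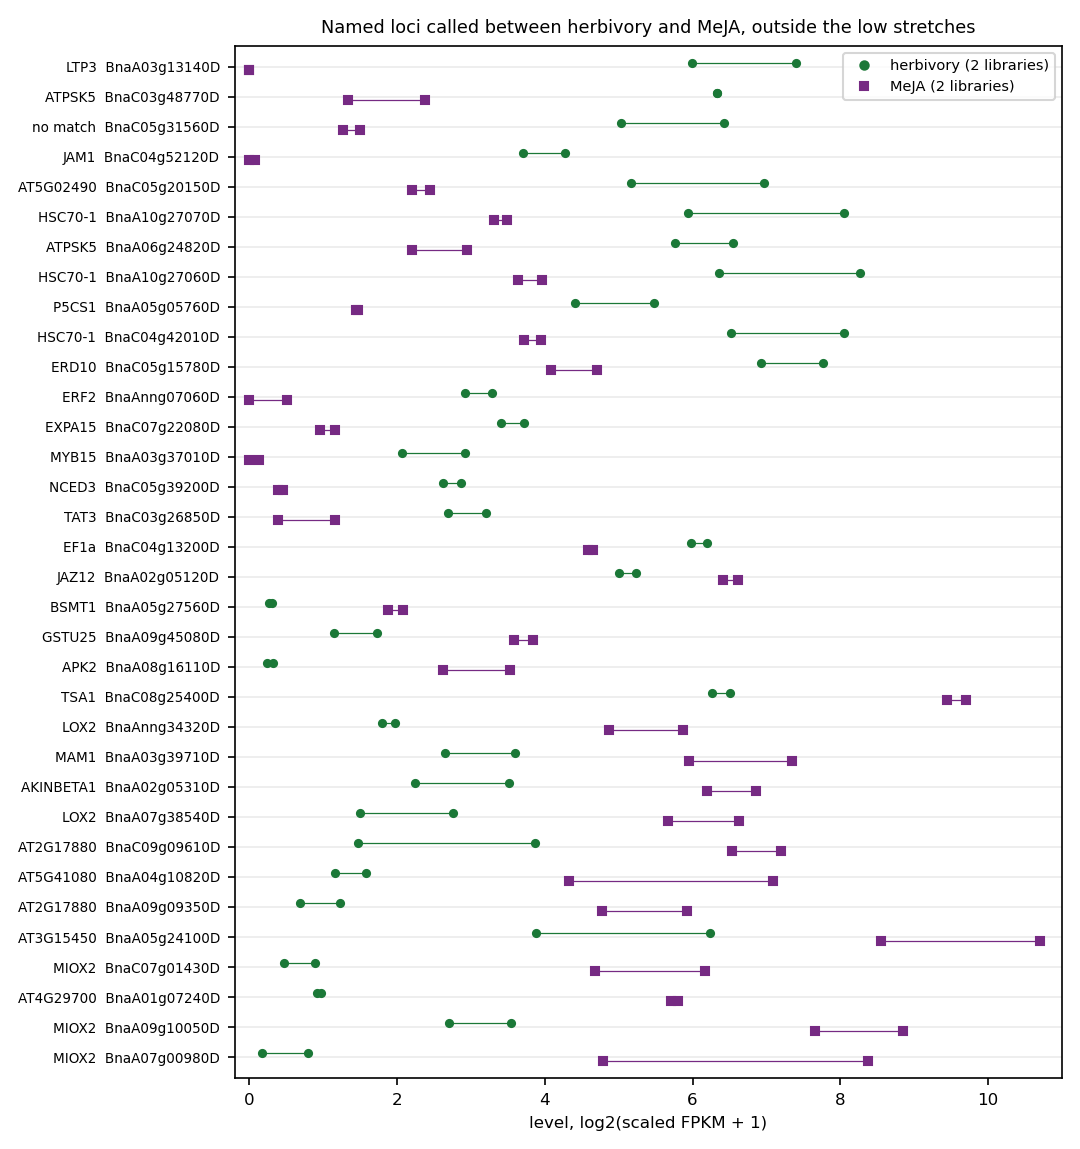
Levels of named called loci outside the low stretches, as log2(scaled FPKM + 1), with 1 row per locus; green circles are the 2 herbivory libraries, purple squares the 2 MeJA libraries, and a line joins the 2 values of a group. In every row the groups are apart: PSK5 BnaC03g48770D and LTP3 BnaA03g13140D lie far to the right in herbivory, MIOX2 and TSA1 loci far to the right in MeJA.

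Jasmonate synthesis did not move as a block. Of 67 loci tested from 15 of its 18 genes, 3 were called higher and 4 lower in herbivory. That was 10.4% called, against 1.78% of all loci, and the median change was 0.06. LOX3, a lipoxygenase of the pathway, had a summed level over its 4 loci of 76.3 and 69.3 FPKM in herbivory, against 7.36 and 16.7 FPKM in MeJA. Its locus BnaA09g45010D was called higher (18.9 and 19.5 FPKM against 0.82 and 2.67 FPKM, 2.97 ± 0.57, limma adjusted p = 0.044). All 4 LOX3 loci were higher in herbivory by at least 1.52, and only that 1 was called.

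AOC3, an allene oxide cyclase, followed LOX3. Its locus BnaA09g19570D had 13.9 and 29.8 FPKM in herbivory and 0.87 and 1.24 FPKM in MeJA (3.39 ± 0.69, limma adjusted p = 0.049). AOC2 had summed levels of 83.9 and 324 FPKM in herbivory against 41 and 12.7 FPKM in MeJA, with none of its 6 loci called. AOS, by contrast, had 157 and 288 FPKM in herbivory and 704 and 812 FPKM in MeJA over 2 loci, neither of them called. The most abundant AOS locus, BnaC02g29610D, had a change of -2.03 ± 0.75 (limma adjusted p = 0.18).

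LOX2, the main leaf lipoxygenase of jasmonate synthesis, was split between its copies. Of 18 loci, 1 was called higher and 3 lower, with changes from -4.03 to 5.55 and a median of 2.37, while their summed level was 1514 and 1764 FPKM in herbivory and 3700 and 4043 FPKM in MeJA. BnaA07g38540D had 5.73 and 1.82 FPKM in herbivory against 98.2 and 49.9 FPKM in MeJA (-4.03 ± 0.53, limma adjusted p = 0.024). BnaAnng34320D had 2.93 and 2.47 FPKM in herbivory against 57.3 and 28.2 FPKM in MeJA (-3.48 ± 0.38, limma adjusted p = 0.019). BnaA07g24880D went the other way, with 10.1 and 79.2 FPKM in herbivory and 0.18 and 0.56 FPKM in MeJA (4.46 ± 0.86, limma adjusted p = 0.045). The most abundant copy, BnaA07g19600D, had 649 and 632 FPKM in herbivory and 2125 and 2256 FPKM in MeJA and was not called (-1.77 ± 0.51, adjusted p = 0.10). Such copies are similar in sequence, and how reads were divided between them was not given in the sources used here.

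The JAZ repressors, which are themselves induced by jasmonate and close the loop, were read against water first. Their 51 loci had a median change of 2.09 in herbivory over water and of 2.51 in MeJA over water, both read against the same water libraries. Over white light, which was unsprayed and at a higher light, the median in herbivory was 1.24. Between herbivory and MeJA the median was -0.50, with 34 of 51 loci lower in herbivory and 1 called (1.96%, near the 1.78% of all loci). Without MeJA 41 the median was 0.05. The called locus was JAZ12 BnaA02g05120D, with 31.0 and 36.6 FPKM in herbivory against 83.8 and 97.1 FPKM in MeJA (-1.39 ± 0.28, limma adjusted p = 0.049). JAZ9, the repressor with the highest summed level, had 535 and 450 FPKM in herbivory and 1357 and 1452 FPKM in MeJA, against 172 and 257 FPKM in water. JAZ1 had 176 and 139 FPKM in herbivory and 238 and 190 FPKM in MeJA, against 11.4 and 23.2 FPKM in water. For JAZ9 the 2 groups stood apart, whereas for JAZ1 their values were close.

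Enzymes that conjugate or inactivate jasmonates had a median change of -0.65 over 49 loci, with 33 lower in herbivory and none called. Without MeJA 41 the median was -0.16, and without MeJA 42 it was -1.18 with 5 loci called lower. The hormone-oxidising JOX3 had summed levels of 4.04 and 4.12 FPKM in herbivory against 144 and 28.1 FPKM in MeJA over 4 loci. Its locus BnaA09g35510D, the one with the smallest p, had a change of -2.66 ± 0.59 (limma adjusted p = 0.059). JMT, which methylates jasmonic acid, had 9.79 and 5.82 FPKM in herbivory and 0.67 and 0.95 FPKM in MeJA, with neither of its 2 loci called.

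Among the signalling core, COI1, the receptor, had summed levels of 20.2 and 19.9 FPKM in herbivory and 21.6 and 26.0 FPKM in MeJA. MYC2, its main transcription factor, had 133 and 94.2 FPKM in herbivory and 180 and 342 FPKM in MeJA, with none of its 3 loci called. NINJA, an adaptor of JAZ repression, had 1 of 4 loci called: BnaA01g07980D, with 9.43 and 7.64 FPKM in herbivory and 23.5 and 20.9 FPKM in MeJA (-1.29 ± 0.25, limma adjusted p = 0.046). JAM1, a bHLH factor that opposes MYC2, had 1 of 4 loci called higher. This locus, BnaC04g52120D, had 18.3 and 12 FPKM in herbivory against a listing of 0 in MeJA 41 and 0.06 FPKM in MeJA 42 (3.95 ± 0.64, limma adjusted p = 0.033). It lies on the unplaced C04 sequences outside the stretches named above, and its 10 nearest tested loci had a median change of 1.26, with 9 of 10 in the same direction. These neighbours were low in both MeJA libraries (-0.68 and -0.83), in ethanol and UN65 42 (-0.54) and in both water libraries (-0.80 and -0.70), the libraries that were low at the start of C04. The median over the 4 JAM1 loci was -0.21, and the part of the neighbourhood in the call at this copy was not tested. Of the called loci given by name outside the stretches, it was the only one whose neighbours had a median of at least 1 in its direction.

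Outputs of the pathway differed in which group they favoured. VSP2, the vegetative storage protein used as a marker of the MYC branch, had summed levels of 119 and 83.1 FPKM in herbivory and 714 and 4234 FPKM in MeJA, against 1.93 and 10.8 FPKM in water. The 2 MeJA libraries were far apart, and the main VSP2 locus BnaC02g41060D was not called (-4.30 ± 1.22, limma adjusted p = 0.099). TAT3, a tyrosine aminotransferase, was called higher in herbivory at its only locus BnaC03g26850D, with 8.22 and 5.48 FPKM against 1.23 and 0.32 FPKM in MeJA (2.17 ± 0.44, limma adjusted p = 0.049). ANAC019, a NAC transcription factor, had 76.8 and 95.5 FPKM in herbivory and 12.9 and 6.29 FPKM in MeJA over 3 loci, and none was called.

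In the branch shared with ethylene, 30 of 41 loci were higher in herbivory, with a median of 0.94 and 1 call (2.44%, near the 1.78% of all loci). That call was ERF2 BnaAnng07060D, an ethylene response factor, with 8.74 and 6.55 FPKM in herbivory against 0.43 FPKM in MeJA 41 and a listing of 0 in MeJA 42 (2.84 ± 0.42, limma adjusted p = 0.028). The defensin PDF1.2a had 82.5 and 136 FPKM in herbivory and 79.1 and 122 FPKM in MeJA at BnaC02g23620D, so the groups overlapped (0.11 ± 0.89). CHI-B, a basic chitinase, lay in the opposite direction at 224 and 251 FPKM in herbivory against 1234 and 1130 FPKM in MeJA, with none of 5 loci called.

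**Figure D3:**
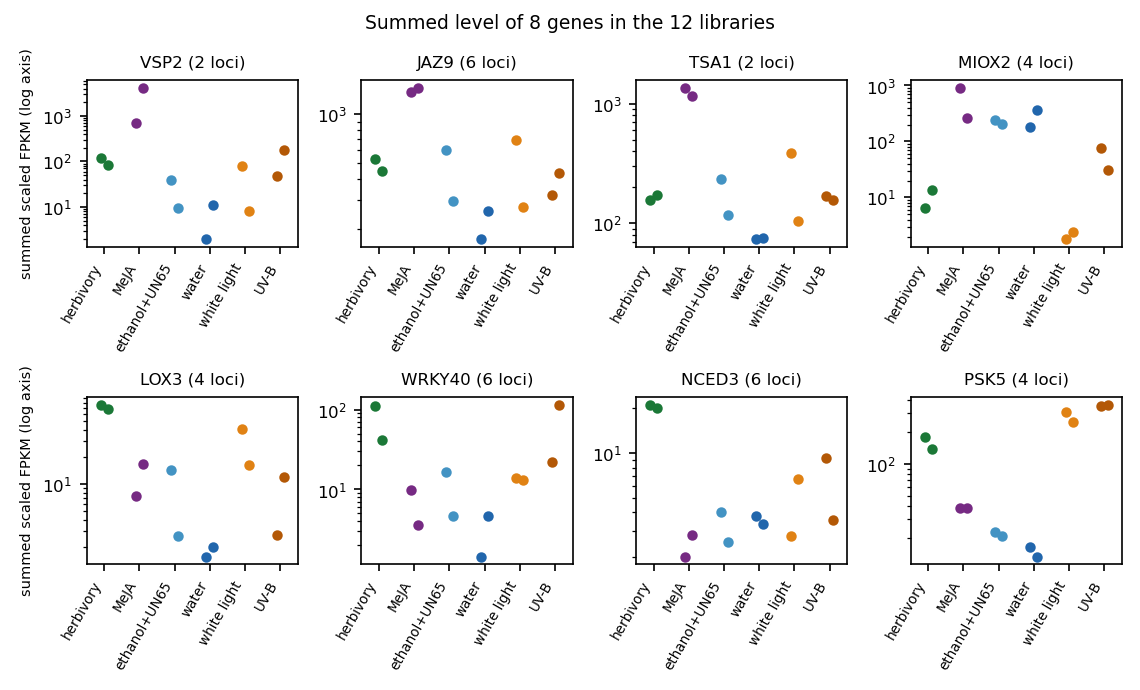
Level of 8 genes summed over their loci (number in each title), in scaled FPKM on a log axis, with 1 point per library and the 6 groups along the axis. VSP2, JAZ9, TSA1 and MIOX2 in the upper row have their highest single value in MeJA; LOX3 and NCED3 in the lower row have theirs in herbivory, and PSK5 is high in herbivory, white light and UV-B.

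Glucosinolates are the sulphur-rich defence compounds of the cabbage family, and their synthesis genes leaned towards MeJA. In the aliphatic list 48 of 56 loci were lower in herbivory (median -0.65) and 1 was called (1.79%, near the 1.78% of all loci). MAM1, which lengthens methionine chains, was that call: BnaA03g39710D had 11.1 and 5.25 FPKM in herbivory against 60.9 and 161 FPKM in MeJA (-3.53 ± 0.63, limma adjusted p = 0.039). In the indole list 32 of 49 loci were lower (median -0.92) and 2 were called (4.08%). Both were copies of TSA1, a tryptophan synthase subunit. TSA1 BnaC08g25400D had 75.9 and 89.6 FPKM in herbivory against 831 and 694 FPKM in MeJA (-3.19 ± 0.63, limma adjusted p = 0.047). TSA1 BnaA09g34470D had 80.4 and 83 FPKM in herbivory against 534 and 469 FPKM in MeJA (-2.60 ± 0.52, limma adjusted p = 0.047).

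ASB1, a subunit of anthranilate synthase on the way to tryptophan, is outside that list and was chosen after its values were seen. It had 2 of 4 loci called lower, with summed levels of 103 and 67.7 FPKM in herbivory and 508 and 335 FPKM in MeJA. CYP83B1, the P450 that commits aldoximes to indole glucosinolates, had 205 and 212 FPKM in herbivory and 633 and 661 FPKM in MeJA, with neither locus called. CYP79B2, which makes those aldoximes, had 205 and 155 FPKM in herbivory and 467 and 388 FPKM in MeJA with 5 loci and no call. The indole list held exceptions: MYB51, a regulator of the branch, had 9.61 and 8.35 FPKM in herbivory and 0.89 and 2.16 FPKM in MeJA over 3 uncalled loci. Read against water, the indole list had a median of 1.47 in herbivory and 2.88 in MeJA. Water plants were sprayed, however. Over white light, which was unsprayed and at a higher light, herbivory had a median of -0.19 for the indole list. For the aliphatic list that median was -0.00088, so neither list stood above unfed white light leaves by its median.

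Sulphate assimilation, which feeds glucosinolates and glutathione, had 49 of 57 loci lower in herbivory and a median of -0.88. It had 3 calls (5.26%, against 0.839% of all loci called lower), all lower. Only 1 of the 3 lay outside the low stretches: APK2 BnaA08g16110D, an APS kinase, with 0.19 and 0.25 FPKM in herbivory against 5.18 and 10.5 FPKM in MeJA (-2.79 ± 0.43, limma adjusted p = 0.031). The other two were GSH1 BnaC01g41470D and ATPS3 BnaC01g22950D, both in stretches where herbivory 41 was low throughout. Myrosinases and specifier proteins, which release and direct glucosinolate products, had no call among 48 loci (median -0.58, and -0.12 without herbivory 42). MBP2, a myrosinase-binding protein, came nearest at BnaA06g01990D, with 313 and 422 FPKM in herbivory against 1743 and 1837 FPKM in MeJA (-2.30 ± 0.55, limma adjusted p = 0.068). Protease inhibitors gave no call among 51 loci, and their median was 0.18.

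Early wound and touch genes gave calls in the direction of herbivory only. Of 61 loci from 14 genes, 9 were called higher (14.8%, against 0.942% of all loci) and none lower, and the median was 1.42, with 50 loci above 0. The 9 called loci were regulators and a carrier: MYB15, ZAT10, ZAT12, WRKY18, WRKY40, WRKY46, 2 copies of ERF4 and the mitochondrial carrier DIC2. MYB15 BnaA03g37010D, a MYB factor induced by injury, had 6.55 and 3.18 FPKM in herbivory against a listing of 0 in MeJA 41 and 0.10 FPKM in MeJA 42 (2.42 ± 0.30, limma adjusted p = 0.022). The zinc finger factor ZAT12 had 6.34 and 6.75 FPKM at BnaC09g35160D in herbivory, against 0 and 0.20 FPKM in MeJA (2.78 ± 0.49, limma adjusted p = 0.038). WRKY40, a pathogen- and wound-induced factor, had summed levels of 111 and 41.5 FPKM in herbivory and 9.74 and 3.57 FPKM in MeJA, with 1 of 6 loci called. WRKY33 and WRKY53, related factors, had medians of 2.29 and 2.34 over 6 and 4 loci without a call. The count of called loci in this list was 0 without herbivory 41 and also without MeJA 41, 4 without herbivory 42 and 1 without MeJA 42, while the list's median stayed between 1.28 and 1.61. The list's median log2 level was 2.92 and 2.76 in herbivory, against 3.61 in UV-B 42, so the level in herbivory was not the highest of the 12 libraries.

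For TCH4 and TCH2, the genes named for their response to touch, the test was not passed. TCH4, a cell wall enzyme, had summed levels of 97.5 and 189 FPKM in herbivory and 318 and 84.2 FPKM in MeJA. TCH2, a calmodulin-like protein, had 68.6 and 91.8 FPKM in herbivory and 41.5 and 28.3 FPKM in MeJA, with none of its 4 loci called.

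Among genes of water stress some were called higher in herbivory. NCED3, which opens the synthesis of abscisic acid (ABA), had summed levels over 6 loci of 21.1 and 20.1 FPKM in herbivory against 2.02 and 2.80 FPKM in MeJA. Of its loci 2 were called higher, and BnaC05g39200D had 6.26 and 5.16 FPKM in herbivory against 0.31 and 0.37 FPKM in MeJA (2.32 ± 0.30, limma adjusted p = 0.024). These were the only calls among 46 loci of the ABA list, whose median was 0.86, with 38 loci higher in herbivory. Neither was called without herbivory 41 or without MeJA 41, and 1 locus of the list was called higher without herbivory 42 or without MeJA 42. P5CS1 makes the osmolyte proline. Its locus BnaA05g05760D had 20.2 and 43.5 FPKM in herbivory and 1.71 and 1.76 FPKM in MeJA (3.49 ± 0.47, limma adjusted p = 0.024). Its paralogue P5CS2 ran the other way: 2 of 4 loci were called lower, and their sum with the rest was 54.6 and 52.8 FPKM in herbivory against 362 and 147 FPKM in MeJA.

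LTP3, a lipid transfer protein, was called at BnaA03g13140D, which had 62.9 and 167 FPKM in herbivory and was listed at 0 in both MeJA libraries (limma adjusted p = 0.021). It was the only one of 9 LTP3 loci to be called. ERD10, a dehydrin, had 121 and 216 FPKM at BnaC05g15780D in herbivory and 16.0 and 25.1 FPKM in MeJA (2.95 ± 0.60, limma adjusted p = 0.048). White light had 434 and 276 FPKM at this locus, above both herbivory values. PYL6, an ABA receptor, had 3 of 6 loci called lower, and its summed level was 4.38 and 4.34 FPKM in herbivory against 56.3 and 87.5 FPKM in MeJA.

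The salicylic acid pathway, known for defence against pathogens that feed on living tissue, leaned towards herbivory as a list, with no call in that direction. Of 79 loci 70 were higher in herbivory and the median was 1.08, yet none was called higher. WRKY70, a factor of the pathway, had summed levels of 68.1 and 164 FPKM in herbivory against 13.0 and 14.8 FPKM in MeJA, with a median change of 3.07 over 6 loci. PR1, its marker, had 97.3 and 203 FPKM in herbivory and 35.9 and 24.4 FPKM in MeJA. White light leaves, neither fed on nor sprayed, had 251 and 2034 FPKM of PR1, and the list's median for herbivory over white light was -0.14. The summed level of the list was 587 and 962 FPKM in herbivory, 314 and 305 FPKM in MeJA and 1043 and 4394 FPKM in white light. The single call was lower: BSMT1 BnaA05g27560D, a methyltransferase of benzoic and salicylic acid, with 0.20 and 0.24 FPKM in herbivory and 2.66 and 3.25 FPKM in MeJA (-1.69 ± 0.26, limma adjusted p = 0.030).

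**Figure D4:**
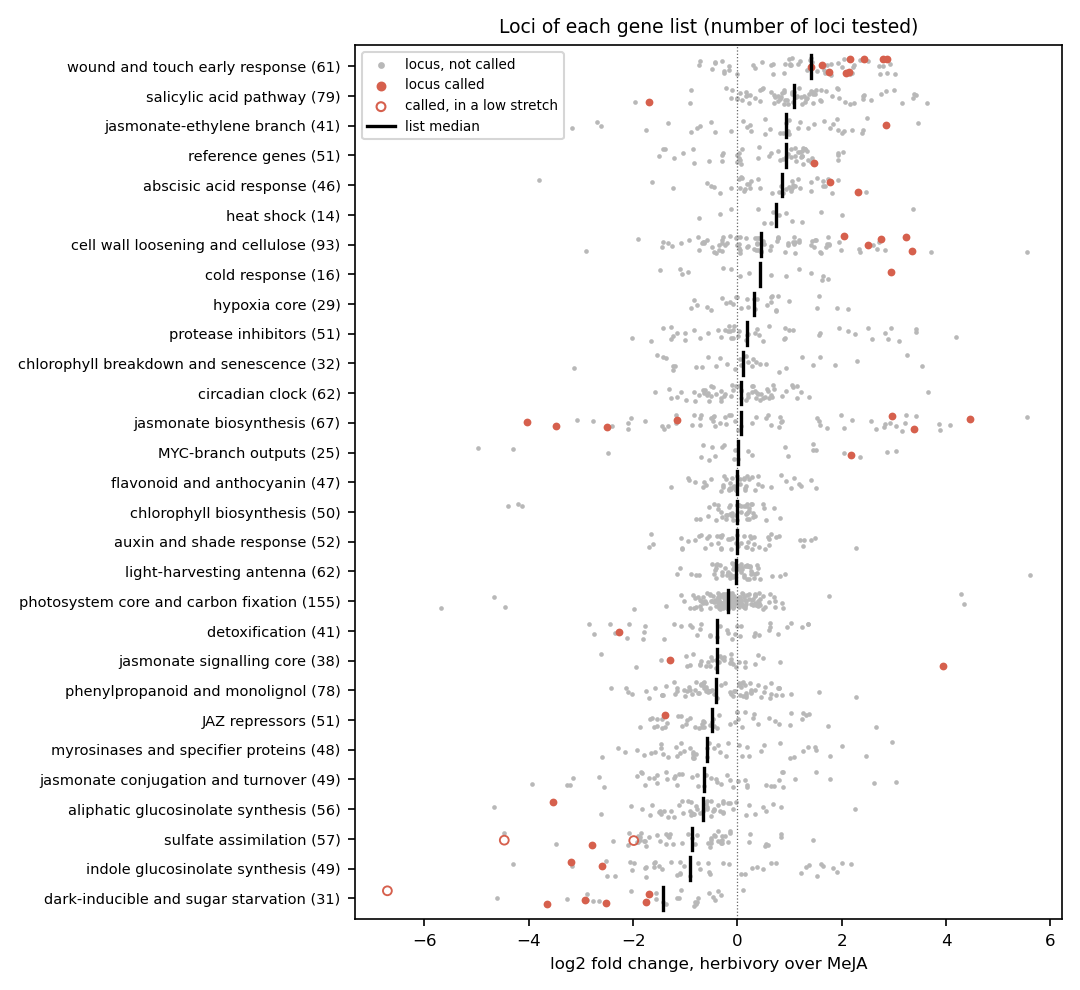
Log2 fold change, herbivory over MeJA, of every tested locus (points) in 29 gene lists, ordered by list median (black bar); red points were called, and open red circles are calls in low stretches. Wound and touch genes sit highest with a median of 1.42 and 9 calls to the right, and dark-inducible and sugar starvation genes sit lowest with a median of -1.42 and 6 calls to the left.

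Dark-inducible and sugar starvation genes gave calls in the direction of MeJA only. Of 31 loci 30 were lower, 6 were called (19.4%, against 0.839% of all loci) and the median was -1.42. AKINBETA1, a subunit of the energy-sensing kinase SnRK1, was called at all 3 of its loci, with summed levels of 31.2 and 12.8 FPKM in herbivory and 241 and 154 FPKM in MeJA. Its locus BnaA02g05310D had a change of -3.65 ± 0.48 (limma adjusted p = 0.024). TPS8, a trehalose phosphate synthase-like protein, was called at both of its loci, at 40.3 and 29.5 FPKM in herbivory against 123 and 114 FPKM in MeJA. SEN1 BnaC01g02910D, the sixth call, had 0.12 and 0.78 FPKM in herbivory and 535 and 40.0 FPKM in MeJA, but it lies in the C01 stretch. Leaving out 1 library left between 0 calls (without MeJA 41) and 4 calls (without MeJA 42), and 1 call without either herbivory library. The list's median ranged from -1.81 to -0.75, the smallest in size without MeJA 41.

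Further genes called lower, some of them chosen after their values were seen, lay outside the lists. MIOX2, a myo-inositol oxygenase, had 3 of 4 loci called lower, with summed levels of 6.35 and 13.7 FPKM in herbivory against 916 and 263 FPKM in MeJA. Its locus BnaA09g10050D had 5.49 and 10.7 FPKM in herbivory and 458 and 200 FPKM in MeJA (-5.13 ± 0.54, limma adjusted p = 0.017). BT5, a BTB and TAZ domain protein, was called lower at all 4 loci (19.5 and 10.9 FPKM in herbivory, 190 and 108 FPKM in MeJA, summed). BZO2H3, a bZIP factor, was called lower at 3 of 4 loci, with 60 and 35.3 FPKM in herbivory and 402 and 313 FPKM in MeJA. ACBP3, an acyl-CoA-binding protein, was called lower at all 4 loci, 1 of them in the C01 stretch. The sharpest locus was BnaA01g07240D, an alkaline-phosphatase-like gene, with 0.90 and 0.96 FPKM in herbivory against 51.2 and 54.8 FPKM in MeJA (-4.81 ± 0.34, limma adjusted p = 0.010).

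For MIOX2 the summed level was 246 and 206 FPKM in ethanol and UN65 and 183 and 369 FPKM in water, and 1.78 and 2.43 FPKM in white light. BT5 had 67.7 and 46.3 FPKM in ethanol and UN65, 98.9 and 97.9 FPKM in water and 12.5 and 8.13 FPKM in white light. AKINBETA1 had 197 and 142 FPKM, 208 and 355 FPKM, and 31.5 and 46.9 FPKM in the same 3 groups. In UV-B, which was not sprayed either, MIOX2 had 76.5 and 30.7 FPKM, BT5 110 and 267 FPKM and AKINBETA1 153 and 219 FPKM. These genes were thus low in herbivory and white light and higher in the other 4 groups, 3 of them sprayed and 1 not. The whole dark-inducible list had a median log2 level of 2.32 and 2.33 in herbivory and 4.62 and 3.17 in MeJA. In water it was 3.35 and 4.05, and in ethanol and UN65 3.32 and 3.10. In white light it was 2.23 and 2.74, and in UV-B 4.70 and 5.06. The list's median change was -0.05 for MeJA over water and 0.50 for MeJA over ethanol and UN65. The alkaline-phosphatase-like locus BnaA01g07240D was different, since it had 6.96 and 3.04 FPKM in ethanol and UN65 and 1.31 and 0.90 FPKM in water, and so stood high in MeJA alone.

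PSK5, the precursor of a phytosulfokine growth peptide, was called higher at 2 of 4 loci and lower at 1. Its locus BnaC03g48770D had 79.8 and 79.5 FPKM in herbivory against 1.54 and 4.19 FPKM in MeJA (4.47 ± 0.35, limma adjusted p = 0.010). BnaA06g24820D had 92.1 and 53.5 FPKM in herbivory and 3.6 and 6.74 FPKM in MeJA (3.58 ± 0.43, limma adjusted p = 0.022). A PSK5 copy on C02, BnaC02g16840D, was called in the opposite direction, with 4.2 and 2.48 FPKM in herbivory and 22.9 and 19.0 FPKM in MeJA (-2.36 ± 0.42, limma adjusted p = 0.039). In white light the C03 locus had 132 and 131 FPKM, and in water 6.01 and 6.75 FPKM, so white light stood with herbivory at this locus.

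An ERF-family gene matched to AT4G28140 was instead higher in herbivory than in MeJA, water and white light. It had 5 of 6 loci called, with summed levels of 42.2 and 52.1 FPKM in herbivory, 0.083 and 0.17 FPKM in MeJA, 0.085 and 1.48 FPKM in water and 5.52 and 19.4 FPKM in white light. MYB102, a MYB factor known in Arabidopsis for its induction by wounding, had 2 of 6 loci called. Its summed levels were 11.1 and 16.1 FPKM in herbivory, 0.70 and 0.69 FPKM in MeJA, 0.97 and 0.31 FPKM in water and 1.75 and 2.32 FPKM in white light. NCED3, described above, had 3.80 and 3.33 FPKM in water and 2.77 and 6.66 FPKM in white light, again under both herbivory values. Over the ERF family as named in the annotation, 16 of 209 loci were called higher (7.66%) and 4 lower (1.91%), against 0.942% and 0.839% of all loci.

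The cell wall list gave 5 calls among 93 loci (5.38%), all higher in herbivory, against 0.942% of all loci called higher. Its median was 0.44. The count called higher was 3 without herbivory 41, 2 without herbivory 42, 0 without MeJA 41 and 8 without MeJA 42. These were 2 copies of EXPA15, an expansin that loosens walls, and 3 copies of XTH17, a xyloglucan-modifying enzyme. EXPA15 BnaC07g22080D had 9.56 and 12.2 FPKM in herbivory against 0.95 and 1.23 FPKM in MeJA (2.50 ± 0.24, limma adjusted p = 0.013). XTH17 BnaC07g42530D had 3.57 and 12.5 FPKM in herbivory against a listing of 0 in MeJA 41 and 0.36 FPKM in MeJA 42 (2.75 ± 0.56, limma adjusted p = 0.049). XTH9 and XTH16, of the same family, lay lower in herbivory at most loci, with medians of -1.21 and -1.34 and no call.

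Genes of protein synthesis were read as groups. Taking the annotation's descriptions after the calls had been seen, 1053 loci were described as ribosomal proteins, those named as plastid or mitochondrial left out. Of these 89 were called higher (8.45%, against 0.942% of all loci) and none lower. Outside the low stretches lay 82 of the 89, and the median over the group was 0.97. Ribosomal protein loci took 7.97% and 6.76% of the summed FPKM of the herbivory libraries, against 4.83% and 3.24% in MeJA. The share was 5.73% and 6.67% in ethanol and UN65, 4.74% and 6.07% in water, 5.33% and 5.59% in white light and 3.33% and 4.78% in UV-B. Ethanol and UN65 42 thus came close to herbivory 42, and UV-B 41 close to MeJA 42. The call count was unstable: 3 without herbivory 41, 17 higher and 13 lower without herbivory 42, 0 without MeJA 41 and 24 without MeJA 42.

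Genes of ribosome assembly in the nucleolus had calls in the same direction, with 15 of 81 loci called higher (18.5%, against 0.942% of all loci) and none lower (median 1.09). The count was 1 without herbivory 41 and also without herbivory 42, 0 without MeJA 41, 2 without MeJA 42 and 1 with no filter on low values. Fibrillarin FIB2 had 66.5 and 124 FPKM in herbivory and 22.9 and 24.2 FPKM in MeJA, with 2 of 3 loci called. NAP57, a pseudouridine synthase of the nucleolus, had 48.3 and 75.7 FPKM in herbivory and 9.47 and 8.48 FPKM in MeJA, with 2 of 3 called. Chaperones of new proteins (the nascent polypeptide-associated complex and the TCP-1 chaperonin) had 11 of 88 loci called higher (12.5%) and 2 lower (2.27%). Fewer were called higher when any single library was left out. Translation initiation and elongation factors had 6 of 313 loci called higher (1.92%) and 2 lower (0.64%), nearer to the 0.942% and 0.839% of all loci. Here too the count called higher fell when any single library was left out.

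Among genes often used as references for normalization, EF1a, an elongation factor, was higher in herbivory at all 18 of its loci, by 1.02 to 1.47, with 1 call: BnaC04g13200D, at 62.2 and 72.1 FPKM in herbivory and 24.2 and 23.0 FPKM in MeJA (1.47 ± 0.25, limma adjusted p = 0.037). This locus had 55.7 and 60.7 FPKM in white light and 27.9 and 33.4 FPKM in water, so white light stood nearer to herbivory and water nearer to MeJA. GAPC2, a glycolytic enzyme, had summed levels of 494 and 424 FPKM in herbivory and 153 and 170 FPKM in MeJA, with none of 7 loci called. ACT2 had 451 and 498 FPKM in herbivory and 855 and 1182 FPKM in MeJA, and UBC21 had 32.6 and 35.3 FPKM in herbivory and 35.0 and 32.6 FPKM in MeJA. Of these 4 genes UBC21 was the one whose groups overlapped in summed level.

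Cytosolic HSP70 chaperones, taken by their Arabidopsis matches after values were seen, were higher in herbivory at all 36 of their loci, with a median of 2.35. They held 12 calls (33.3%, against 0.942% of all loci called higher), 10 of them outside the low stretches. There were 14 calls without herbivory 41, 8 without herbivory 42, 0 without MeJA 41 and 5 without MeJA 42. HSC70-1, the constitutive form, had summed levels over 25 loci of 781 and 2617 FPKM in herbivory against 163 and 222 FPKM in MeJA. It had 222 and 171 FPKM in water and 1193 and 1307 FPKM in white light. Its locus BnaA10g27060D had 81.3 and 306 FPKM in herbivory against 11.5 and 14.6 FPKM in MeJA (3.51 ± 0.56, limma adjusted p = 0.032). The 2 herbivory libraries were unequal, and the locus's change was 2.56 without herbivory 42 and 4.46 without herbivory 41. The heat shock list holds small heat shock proteins and their regulators, and also HSP70-4 of the cytosolic group. It had no call among 14 loci (median 0.74).

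No gene of light harvesting, photosynthesis or the clock was called. None of 62 light-harvesting loci, 155 photosystem and carbon fixation loci, 50 chlorophyll synthesis loci and 62 clock loci was called, and their medians were -0.02, -0.18, -0.01 and 0.06. The first 3 of these medians average herbivory libraries that differ. Without herbivory 41 they were -0.87, -0.77 and -0.53, and without herbivory 42 they were 0.86, 0.44 and 0.51. Flavonoid, phenylpropanoid, auxin and shade, senescence and hypoxia lists had no call either, with medians of 0.00, -0.42, -0.02, 0.11 and 0.31 over 47, 78, 52, 32 and 29 loci. In the detoxification list 1 of 41 loci was called (2.44%, near the 1.78% of all loci) and the median was -0.38. The call was GSTU25 BnaA09g45080D, a glutathione transferase, with 2.3 and 1.22 FPKM in herbivory and 13.3 and 10.9 FPKM in MeJA (-2.27 ± 0.44, limma adjusted p = 0.045). The cold list had 1 call among 16 loci (6.25%, against 1.78% of all loci), the ERD10 locus given above. A gene of the GH3 family, whose members join amino acids to hormones, matched to AT5G51470, had 3 of 6 loci called lower, at 20.8 and 14.5 FPKM in herbivory against 75.4 and 65.7 FPKM in MeJA. Another, matched to AT1G23160, had 2 of 3 loci called lower, at 14.6 and 7.80 FPKM in herbivory against 44.9 and 52.5 FPKM in MeJA. Over all 34 loci named as GH3 in the annotation, 5 were called lower (14.7%, against 0.839% of all loci) and none higher. The family's median was -0.08, with 16 loci higher and 18 lower in herbivory, so the family did not move as a block.

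Because MeJA plants were sprayed and herbivory plants were not, the called loci were also read in white light against water, a pair of groups that shares no library with this comparison. White light plants were unsprayed and kept at a higher light, and water plants were sprayed. Of the 468 loci called higher in herbivory, 440 (94.0%) were higher in white light than in water, with a median difference of 1.00 on the log2 scale. Of the 417 called lower, 87 (20.9%) were higher in white light, with a median of -0.72. Over all loci tested 52.3% were higher in white light and the median was 0.04. Outside the low stretches, which the water libraries share with MeJA, the counts were 392 of 419 and 71 of 350. The water and MeJA columns come from 1 quantification run. In white light against ethanol and UN65, the shares above 0 were 87.4% of the loci called higher and 17.0% of those called lower.

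In UV-B plants, also unsprayed, the split was weaker against water, and against ethanol and UN65 it was not seen for the loci called higher. In UV-B against water, 65.0% of the loci called higher in herbivory and 33.8% of those called lower were above 0, with medians of 0.30 and -0.26, and over all loci the share was 50.6%. In UV-B against ethanol and UN65, the shares were 46.6% of the loci called higher and 36.2% of those called lower, against 49.6% over all loci. These 4 readings share the white light, UV-B, water or ethanol and UN65 libraries with each other. The part of spray, cover and light in the calls was not tested.

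**Figure D5:**
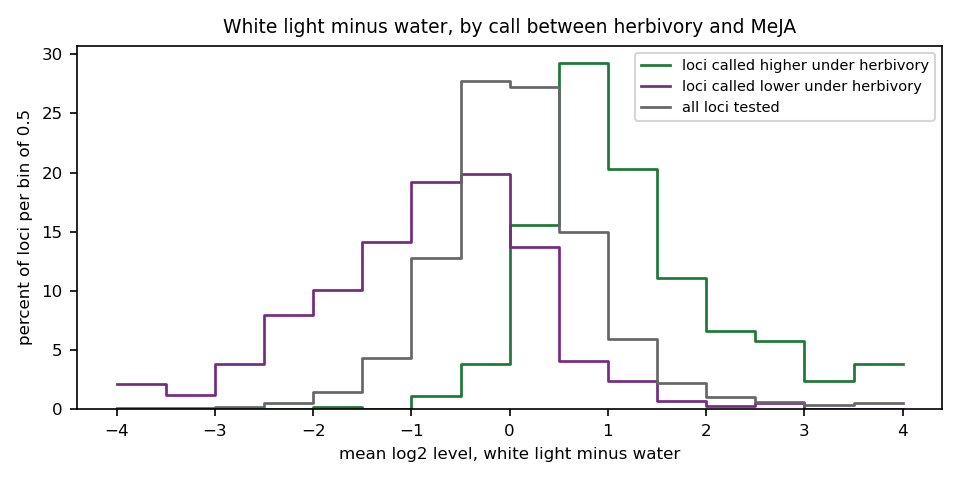
Distribution of the difference in mean log2 level, white light minus water, in bins of 0.5 (differences beyond 4 in size are counted in the end bins), as a percentage of loci. Loci called higher under herbivory (green) lie mostly right of 0 with a median of 1.00, loci called lower (purple) mostly left with a median of -0.72, and all loci tested (grey) are centred at 0.04.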

How the data were processed

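RNA of true leaves was sequenced from TruSeq libraries. Per the labels and the study's methods, the authors aligned reads with TopHat2 2.1.12 and obtained the deposited FPKM from Cufflinks 2.2.1. As references for alignment the methods name a Brassica Unigene set and the B. napus and Arabidopsis genomes. TAIR10 is the only build the processing notes name, and the methods give it for annotating transcripts by similarity. The matrix is named as read counts, but its values are FPKM taken from separate Cuffdiff runs. FPKM keeps no read depth, so depth is unknown and no counting interval is given. Not used were the authors' fold changes, p-values and q-values, and 22 single-library columns without a matching label.

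Columns were scaled over 46905 loci (factors 0.716 to 1.04) and log2 was taken after adding 1. Of 101040 loci, 49700 passed the filter (1 FPKM or more in 2 or more of the 12 libraries). They entered limma 3.58.1 (R 4.3.3) with 6 group means, a variance trend, no block and 6 residual degrees of freedom. Calls required a change of 1 or more in log2 and a p below 0.05 after Benjamini-Hochberg adjustment. A locus marked as too deep was left out (1 locus). The p-values measure the spread between these libraries.

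The 36 gene lists, the named loci and the tests were chosen with earlier results of these data known, and lists were described by counts and medians with no set test. Named were the 15 largest called changes each way with a mean log2 level of at least 3, the locus of smallest p in each list, and the most abundant locus of 17 marker genes, of which 2 had no tested locus. The 9 added groups and the other genes named by their copies were chosen after seeing the data. So were the reading of white light and UV-B against water or ethanol and UN65, and the check of neighbouring loci. The groups were formed from annotation text, except cytosolic HSP70, which was taken by Arabidopsis matches. Alternatives were other scalings, pseudocounts, filters, a replicate block and leaving out libraries. Sequences and promoter motifs were not analysed here.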

Additional observations from a re-analysis of the deposited data

How the results depend on the processing

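Other ways of processing moved the 885 calls (52.9% of them higher). There were 1642 calls after quantile normalization, 475 with a pseudocount of 0.1, 429 with no filter on low values, 292 when copies were summed per Arabidopsis gene (129 higher and 163 lower of 16936 genes) and 0 with the 4 libraries alone (9250 loci with an unadjusted p under 0.05). Leaving out 1 library gave 0 to 776 calls; the lone library of that group is then assumed to vary like the others. The split between directions depended on scaling: 37.0% of 1185 calls were higher with values as deposited, and 74.7% of 738 with libraries set to equal totals. The labels do not say whether the numbers 41 and 42 mark a shared day or plant. The deviations of same-numbered herbivory and MeJA libraries correlated at -0.092, and the other groups were not read for this. A replicate block gave 973 calls, 602 of them higher (61.9%). Outside the low stretches a separate fit gave 374 higher and 310 lower of 47686 loci. A pseudocount of 0.5, a filter in 4 libraries, factors from 4 libraries, no trend, no minimum change and keeping the marked locus gave 736 to 933 calls.

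Among the lists, medians near 0 changed sign with the scaling: jasmonate synthesis had -0.07 with values as deposited, and photosystem and epidermis loci had 0.05 each with equal totals. Directions of named loci held in the alternatives run, except for 4 loci that were not called. PDF1.2a BnaC02g23620D was -0.025 with values as deposited, and without single libraries it ranged from -0.25 (without herbivory 42) to 0.47, with -0.19 without MeJA 41. Over the same omissions TGG1 BnaA09g52790D ranged from -0.27 (without herbivory 41) to 0.71, RBCS1A BnaA02g12810D from -3.13 to 0.97 (without herbivory 42) and JAZ10 BnaA10g20060D from -1.69 to 0.75 (without MeJA 41). With 2 libraries a group, a separate scaling of each quantification run and no read depth, changes of low loci are the least certain.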
